A study of Mus musculus with 14 samples.

Results

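The genes described here signal DNA damage and repair it. They are 43 genes named by symbol, found among the 20308 gene symbols of the table, and all 43 passed the filter on low counts that left 13011 genes tested. They comprise 4 damage kinases, 6 genes of break sensing, 10 of homologous recombination, 3 of the Fanconi anaemia pathway, 4 of end joining, 2 of mismatch repair, 6 of base excision and single-strand break repair, 3 of nucleotide excision repair, 2 of translesion synthesis and nucleotide supply, and the 3 Gadd45 genes. They were measured by polyadenylated RNA sequencing in bladder urothelium, the epithelium that lines the bladder, of mouse embryos at embryonic day 15.5 on a mixed C57BL/6; 129S4 background.

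Of 14 libraries, 5 came from Dnmt1cKO embryos (Shhcre/+; Dnmt1flox/flox), 2 from Control embryos (Shhcre/+; Dnmt1flox/+) and 7 from Cre-negative littermates, whose Dnmt1 alleles are not named. Dnmt1cKO and Control embryos thus share the Cre allele, which sits in the Shh locus and is active where Shh is, the urothelium among other epithelia. Each library is 1 lysate pooled from several embryos, so a library is not 1 animal. The urothelium was freed from the stroma with trypsin before lysis.

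DNA breaks are sensed by the Mre11-Rad50-Nbn complex, and the kinases Atm and Atr pass the signal to Chek2, Chek1 and p53. Breaks are then closed by homologous recombination, which copies the sister chromatid, or by end joining, while damaged or mispaired bases are cut out by base excision, mismatch or nucleotide excision repair. Dnmt1 copies CpG methylation onto newly made DNA, and in other mouse and human cells its loss is known to activate p53 and damage signalling. Much of this control acts on proteins, by phosphorylation, and is not seen in RNA. Several repair genes, among them Ddb2, Xpc, Polk, Rrm2b and Gadd45a, are known transcriptional targets of p53.

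The promoters of 4 genes on which the results turn are shown with each CpG, the dinucleotide that Dnmt1 methylates, in capitals. They are Tdg, whose level varied least, and Mdc1, Fanca and Xrcc6, which passed an unadjusted test. Each is the 250 bases before the transcription start, from RefSeq on GRCm38.p6, printed 5′ to 3′ on the gene's strand. Tdg lies at chr10:82629588-82629837 on the plus strand, Mdc1 at chr17:35841248-35841497 on the plus strand, Fanca at chr8:123318577-123318826 on the minus strand and Xrcc6 at chr15:82016119-82016368 on the plus strand. In GENCODE M21 the genes span chr10:82629828-82650799 (Tdg), chr17:35841515-35859670 (Mdc1), chr8:123268300-123318576 (Fanca) and chr15:81987835-82040085 (Xrcc6), so the RefSeq start used for Xrcc6 lies inside its annotated span.
Tdg: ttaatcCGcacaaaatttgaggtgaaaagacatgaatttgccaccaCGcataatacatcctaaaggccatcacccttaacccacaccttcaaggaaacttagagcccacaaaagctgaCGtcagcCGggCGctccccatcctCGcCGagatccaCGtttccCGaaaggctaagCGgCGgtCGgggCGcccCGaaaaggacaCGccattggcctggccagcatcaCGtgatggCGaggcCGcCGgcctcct
Mdc1: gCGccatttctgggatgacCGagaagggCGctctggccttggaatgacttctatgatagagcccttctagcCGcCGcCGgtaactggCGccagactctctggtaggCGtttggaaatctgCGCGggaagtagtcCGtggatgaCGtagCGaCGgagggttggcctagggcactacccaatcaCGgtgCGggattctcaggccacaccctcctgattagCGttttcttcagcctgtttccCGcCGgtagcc
Fanca: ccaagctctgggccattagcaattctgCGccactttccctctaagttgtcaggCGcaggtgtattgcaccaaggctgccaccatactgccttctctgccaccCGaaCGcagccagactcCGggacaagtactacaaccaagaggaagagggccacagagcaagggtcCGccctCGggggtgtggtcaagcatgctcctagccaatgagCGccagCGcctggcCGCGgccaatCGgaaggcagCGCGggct
Xrcc6: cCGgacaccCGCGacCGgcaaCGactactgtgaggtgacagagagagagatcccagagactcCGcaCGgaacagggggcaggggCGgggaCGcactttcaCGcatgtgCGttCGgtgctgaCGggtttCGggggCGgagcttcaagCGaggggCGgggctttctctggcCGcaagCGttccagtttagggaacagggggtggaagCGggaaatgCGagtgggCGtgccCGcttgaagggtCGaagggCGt
Tdg and Mdc1 each have 19 CpG there, a number reached or passed by 19.6% of 27025 promoters, 1 per gene. Xrcc6 has 25, reached by 10.3%, and Fanca has 14, reached by 29.5%. The E2F motif, bound by factors that drive S-phase genes, was searched as TTTCCCGC, TTTCGCGC, TTTGCCGC and TTTGGCGC on both strands. Mdc1 holds TTTCCCGC starting 16 bases before the start, Xrcc6 holds it on the opposite strand 46 bases before the start, and 1.92% of all promoters hold 1 of the 4 forms. Among the other members matched to a promoter, Chek2, Brca2 and Bard1 also hold a form, and none of them passed an unadjusted test. Methylation was not measured, and these matches describe letters in a window only.

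Depth ran from 2520509 to 9573007 expected counts in Dnmt1cKO libraries, from 5731113 to 13131921 in Control and from 3111972 to 12958881 in Cre-negative libraries. Levels are given as CPM, counts scaled to a common library total after TMM scaling. Dnmt1 itself stood at 9.99, 26.7, 123, 31.2 and 49.1 CPM in Dnmt1cKO 1 to 5, at 97.4 and 106 CPM in Control, and between 41.3 and 192 CPM in Cre-negative libraries. The libraries labelled Dnmt1cKO 3 and Dnmt1cKO 5 were therefore inside the Cre-negative range for Dnmt1, Dnmt1cKO 5 above only the lowest Cre-negative library. The 18 urothelium markers summed to 5794 to 17259 CPM in Dnmt1cKO, 8202 and 13818 CPM in Control and 12157 to 21286 CPM in Cre-negative libraries, and none was at 0 in a whole group. The 18 stroma and smooth muscle markers summed to 323 to 11928 CPM in Dnmt1cKO, 3520 and 12896 CPM in Control and 184 to 3378 CPM in Cre-negative libraries. Dnmt1cKO 3 had the lowest urothelium and the highest stroma sum of its group. Without Dnmt1cKO 3 or without Dnmt1cKO 5, 0 of the 43 genes were called by edgeR in any comparison, and values without them are given for the 3 genes that passed an unadjusted test.

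No repair or damage-signalling gene changed by the test in any of the 3 comparisons. In Dnmt1cKO against Cre-negative, 0 of the 43 genes had a Benjamini-Hochberg adjusted p under 0.05 in edgeR's quasi-likelihood test, where 1.1% of all tested genes did, 119 higher and 24 lower. In Dnmt1cKO against Control the count was also 0 of 43, where 0.177% of all genes passed. In Control against Cre-negative it was 0 of 43, where 0.0538% passed. With so few calls in the background, 0 among 43 genes is near the background share in each comparison.

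At an unadjusted p under 0.05, 3 of the 43 genes passed in Dnmt1cKO against Cre-negative, Mdc1 higher and Fanca and Xrcc6 lower, beside 13.7% of all genes. In Dnmt1cKO against Control 0 of 43 passed beside 6.94% of all genes, and in Control against Cre-negative 0 of 43 beside 3.67%. DESeq2 called 0 of the 43 genes in Dnmt1cKO against Cre-negative, where it called 4.22% of all genes, 0 against Control beside 0.868%, and 0 in Control against Cre-negative beside 0.208%. Limma-voom called 1, Fanca, lower in Dnmt1cKO than in Cre-negative urothelium, where it called 3.49% of all genes. It called 0 of 43 in Dnmt1cKO against Control beside 1.78%, and 0 in Control against Cre-negative beside 0.307%. The median log2 fold change of the 43 genes was 0.03 for Dnmt1cKO against Cre-negative, with 22 of 43 above 0, beside a median of -0.04 over all genes. It was -0.01 against Control, with 21 of 43 above 0. In limma-voom the median over all genes moved to -0.34 for the comparison with Cre-negative, and that of the 43 genes to -0.73.

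**Figure D1:**
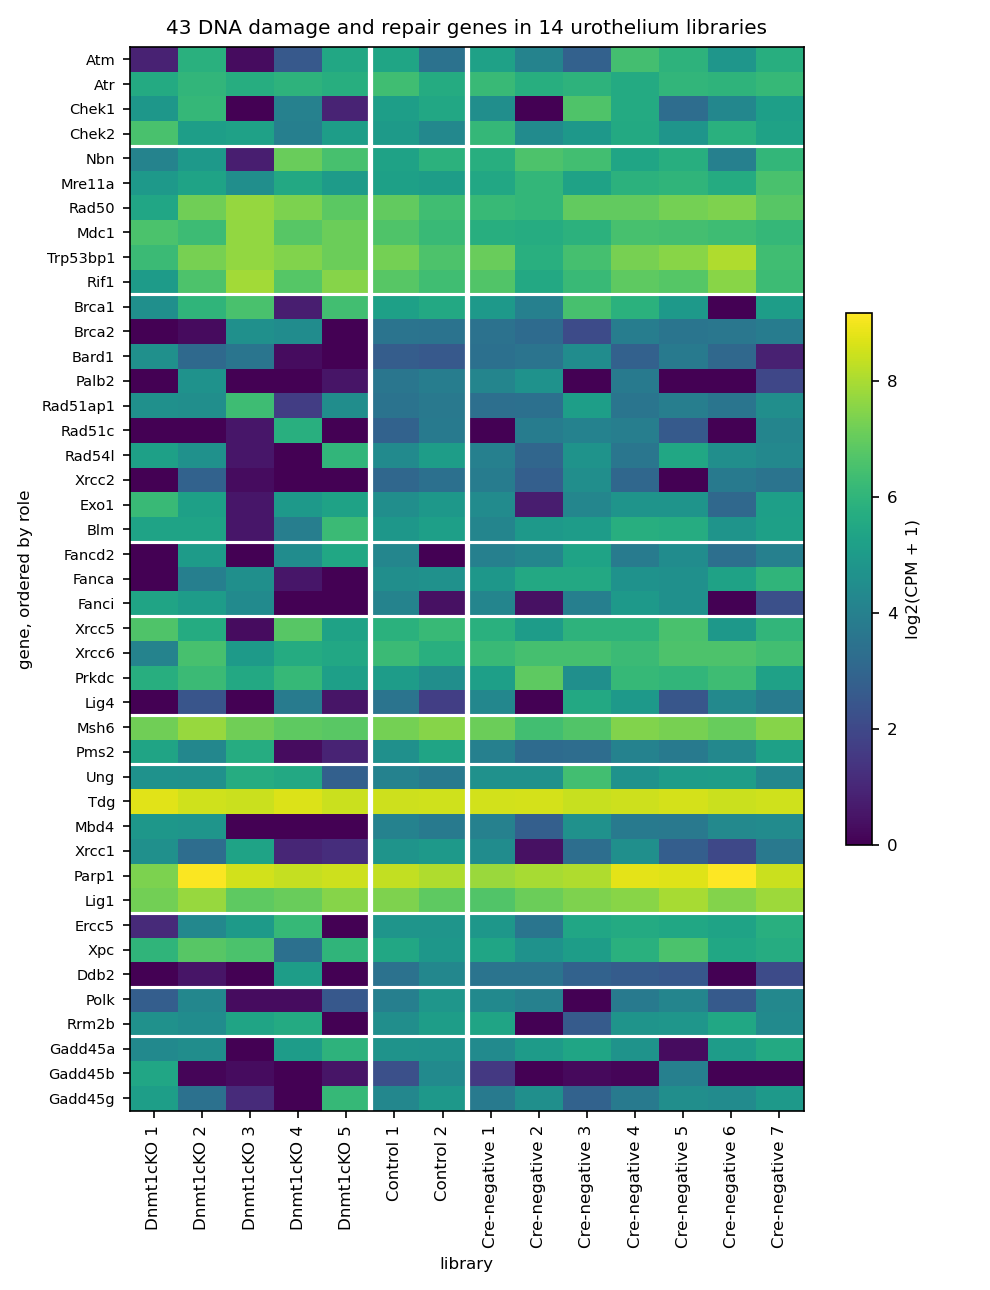
Level of each of the 43 genes (rows, ordered by role and divided by white lines) in each of the 14 libraries (columns), as log2(CPM + 1). Tdg and Parp1 are bright in every library, while dark cells, values at or near 0, are scattered over Dnmt1cKO 1, 3, 4 and 5 and a few Cre-negative libraries.

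The 4 damage kinases kept overlapping levels. Atr, the kinase that responds to stalled forks and single-stranded DNA, held 47.4, 65.2, 51.0, 60.7 and 52.6 CPM in Dnmt1cKO 1 to 5, 80.2 and 49.5 CPM in Control, and 47.7 to 73.2 CPM with a median of 60.9 in Cre-negative libraries. Set against Cre-negative libraries, its log2 fold change was -0.14 ± 0.41 (SE; 95% interval -0.98 to 0.69), so a 2-fold change lay outside the interval. Atm, the kinase for double-strand breaks, was far less even. It measured 0.856, 55.9, 0.241, 4.83 and 44.4 CPM in Dnmt1cKO, 40.6 and 9.87 CPM in Control, and 6.22 to 86.0 CPM with a median of 37.1 in Cre-negative libraries. Dnmt1cKO 1 and 3 were near 0 and Dnmt1cKO 2 and 5 stood inside the Cre-negative range.

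Chek1, the effector kinase of Atr, measured 27.7, 68.1, 0, 15.2 and 0.870 CPM in Dnmt1cKO, 34.0 and 43.9 CPM in Control, and 0 to 99.0 CPM with a median of 22.3 in Cre-negative libraries. Both groups thus held libraries at 0 and libraries over 60 CPM, and the log2 fold change of -0.56 had an interval of -2.83 to 1.72. Chek2, the effector kinase of Atm, measured 91.6, 33.9, 36.8, 14.5 and 33.1 CPM in Dnmt1cKO, 31.2 and 18.6 CPM in Control, and 20.5 to 68.5 CPM with a median of 38.1 in Cre-negative libraries. Dnmt1cKO 1 stood above the Cre-negative range, and Dnmt1cKO 4 and Control 2 stood below it. Against Cre-negative the log2 fold change came to 0.05 ± 0.60, and to -0.60 without the 3 shallowest libraries.

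Among the genes that sense breaks and mark chromatin beside them, Mdc1 stood highest relative to Cre-negative. Mdc1 encodes the adaptor that binds phosphorylated histone H2AX at breaks. It measured 95.3, 76.9, 205, 111 and 136 CPM in Dnmt1cKO, 98.0 and 73.2 CPM in Control, and 49.8 to 89.3 CPM with a median of 67.4 in Cre-negative libraries. Of the 5 Dnmt1cKO libraries 4 lay above every Cre-negative library, and Dnmt1cKO 2 lay within their range. Control 1 also lay above every Cre-negative library, and above Dnmt1cKO 1 and 2. Expected counts of Mdc1 were not whole in any of the 14 libraries, and the cause was not tested. The log2 fold change was 0.85 ± 0.35 (95% interval 0.13 to 1.57; unadjusted p = 0.0223, adjusted p = 0.265, edgeR) against Cre-negative and 0.54 ± 0.52 against Control (adjusted p = 1, edgeR). The highest value was in the library labelled Dnmt1cKO 3, and without that library the log2 fold change against Cre-negative was 0.62, and without Dnmt1cKO 5 it was 0.82. With the stroma markers as a covariate it was 0.53. The part of stroma in this difference was not tested further, and in bulk RNA fewer cells of a type and less RNA per cell cannot be told apart.

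The nuclease Mre11a, its partner Rad50 and the adaptor Nbn make up the break sensor. Mre11a measured 29.97, 38.5, 22.4, 45.2 and 31.7 CPM in Dnmt1cKO, 35.7 and 33.7 CPM in Control, and 38.2 to 90.8 CPM with a median of 58.4 in Cre-negative libraries. Control and Dnmt1cKO libraries lay together at the low end, and Dnmt1cKO 2 and 4 overlapped the Cre-negative range (log2 fold change -0.80 ± 0.50 for Dnmt1cKO against Cre-negative, adjusted p = 0.542, and -0.75 ± 0.70 for Control against Cre-negative, adjusted p = 1, both edgeR). Exons of Mre11a overlap those of Ankrd49 on the opposite strand, and the use of strand in counting is not given in the sources used here. Rad50 averaged 135 ± 61.5 CPM in Dnmt1cKO (SD, n = 5) and 117 ± 37.7 CPM in Cre-negative libraries (n = 7), with an interval of -0.54 to 0.97 for the log2 fold change. Nbn measured 0.722 CPM in Dnmt1cKO 3 and 132 CPM in Dnmt1cKO 4, a wider range than the 15.04 to 97.6 CPM of the Cre-negative libraries. Trp53bp1, which steers breaks to end joining, had an interval of -0.65 to 0.88, and Rif1, its effector, one of -0.48 to 1.22.

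The 10 genes of homologous recombination were low and uneven. Their median log2 fold change against Cre-negative was 0.09, 5 of 10 were above 0, and none had an interval within a 2-fold change. Brca1, which promotes resection of break ends, measured 22.8, 62.8, 91.6, 0.725 and 82.2 CPM in Dnmt1cKO, 35.9 and 45.5 CPM in Control, and 0 to 88.5 CPM with a median of 29.5 in Cre-negative libraries. Its groups overlapped almost fully (log2 fold change 0.53 ± 0.90). Xrcc2, which acts in strand exchange, measured 6.46 CPM in Dnmt1cKO 2 and 0.241 CPM or less in the other 4 Dnmt1cKO libraries, against 7.32 and 9.55 CPM in Control and 0 to 22.3 CPM with a median of 10.6 in Cre-negative libraries. Dnmt1cKO libraries were low for Xrcc2 but a Cre-negative library was at 0 too, and the log2 fold change of -2.88 had an SE of 1.80 (adjusted p = 0.536, edgeR). Without Dnmt1cKO 2 it was -6.96 (adjusted p = 0.105 in edgeR, the lowest for Xrcc2 over the alternatives, whose highest was 0.908).

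Rad51ap1, which stimulates strand invasion, measured 23.4, 22.3, 78.4, 2.175 and 21.3 CPM in Dnmt1cKO, 10.2 and 12.1 CPM in Control, and 9.24 to 34.4 CPM with a median of 10.9 in Cre-negative libraries. Dnmt1cKO 3 alone lay above the Cre-negative range. The log2 fold change was 0.89 ± 0.89, and 0.15 without Dnmt1cKO 3. Exo1, a nuclease of end resection, measured 73.6, 36.4, 0.481, 29.96 and 37.8 CPM in Dnmt1cKO, 21.9 and 28.7 CPM in Control, and 0.682 to 35.1 CPM with a median of 20.6 in Cre-negative libraries (log2 fold change 0.90 ± 0.90). For Brca2, Bard1, Palb2, Rad51c, Rad54l and Blm the log2 fold changes lay between -0.69 for Palb2 and 0.29 for Rad54l. Rad51c measured 54.4 CPM in Dnmt1cKO 4 and 0.481 CPM or less in the other 4 Dnmt1cKO libraries.

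Of the 3 Fanconi anaemia genes, which act on crosslinks between DNA strands, Fanca was the only 1 of all 43 genes with the 5 Dnmt1cKO libraries on 1 side of the 7 Cre-negative libraries, which 1.86% of all tested genes showed. A count of 1 in 43 is near that background share. Fanca, a subunit of the core ubiquitin ligase complex, measured 0, 14.5, 22.6, 0.483 and 0 CPM in Dnmt1cKO, 22.1 and 24.1 CPM in Control, and 23.5 to 63.5 CPM with a median of 37.8 in Cre-negative libraries. Dnmt1cKO 1, 4 and 5 were at or near 0, Dnmt1cKO 3 lay between the Control libraries, and the highest Dnmt1cKO value was just under the lowest Cre-negative one. None of the 43 genes had all 5 Dnmt1cKO libraries on 1 side of the other 9, beside 1.34% of all genes. The log2 fold change of Fanca against Cre-negative was -2.33 ± 1.11 (95% interval -4.62 to -0.05; adjusted p = 0.352, edgeR), and against Control -1.61 (adjusted p = 1, edgeR). In limma-voom it was -4.68 (adjusted p = 0.0184, the lowest over the alternatives, whose highest was 0.639). In edgeR it was -3.25 without the library labelled Dnmt1cKO 3 and -2.02 without Dnmt1cKO 5. Exons of Fanca overlap those of Zfp276 on the opposite strand. Fancd2 and Fanci, the pair that the core complex ubiquitinates, had log2 fold changes of 0.03 and 0.55, with Fancd2 at 0 CPM in Dnmt1cKO 1 and 3 and in Control 2.

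In end joining, Xrcc6, the Ku70 subunit that binds broken ends, was lower in most Dnmt1cKO libraries. It measured 15.98, 88.9, 30.8, 49.1 and 43.9 CPM in Dnmt1cKO, 75.0 and 53.7 CPM in Control, and 73.2 to 97.6 CPM with a median of 87.3 in Cre-negative libraries. Dnmt1cKO 1, 3, 4 and 5 and Control 2 lay under every Cre-negative library, and Dnmt1cKO 2 lay among them. The log2 fold change was -0.91 ± 0.43 (95% interval -1.80 to -0.01; adjusted p = 0.355, edgeR) and, without the 3 shallowest libraries, -0.58. Without the library labelled Dnmt1cKO 3 it was -0.76, and without Dnmt1cKO 5 it was -0.89. Xrcc5, the Ku80 subunit that pairs with Ku70, had a log2 fold change of 0.08 ± 0.66, with 0.241 CPM in Dnmt1cKO 3 and 110 CPM in Dnmt1cKO 4. Exons of Xrcc6 overlap those of Desi1 on the opposite strand.

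Prkdc, the kinase that Ku recruits, measured 52.8, 75.0, 45.7, 69.1 and 34.8 CPM in Dnmt1cKO, 32.3 and 22.3 CPM in Control, and 22.6 to 119 CPM with a median of 64.0 in Cre-negative libraries. Both Control libraries lay under all 5 Dnmt1cKO libraries, but the lowest Cre-negative library lay beside them. Its log2 fold change was 1.02 ± 0.74 for Dnmt1cKO against Control, the smallest unadjusted p of the 43 genes in that comparison (0.183, adjusted p = 1, edgeR), and -0.13 ± 0.49 against Cre-negative. Lig4, the ligase of end joining, measured 0, 4.38, 0, 13.05 and 0.435 CPM in Dnmt1cKO, 10.6 and 2.27 CPM in Control, and 0 to 45.5 CPM with a median of 18.1 in Cre-negative libraries (log2 fold change -2.36 ± 1.56, adjusted p = 0.575, edgeR).

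**Figure D2:**
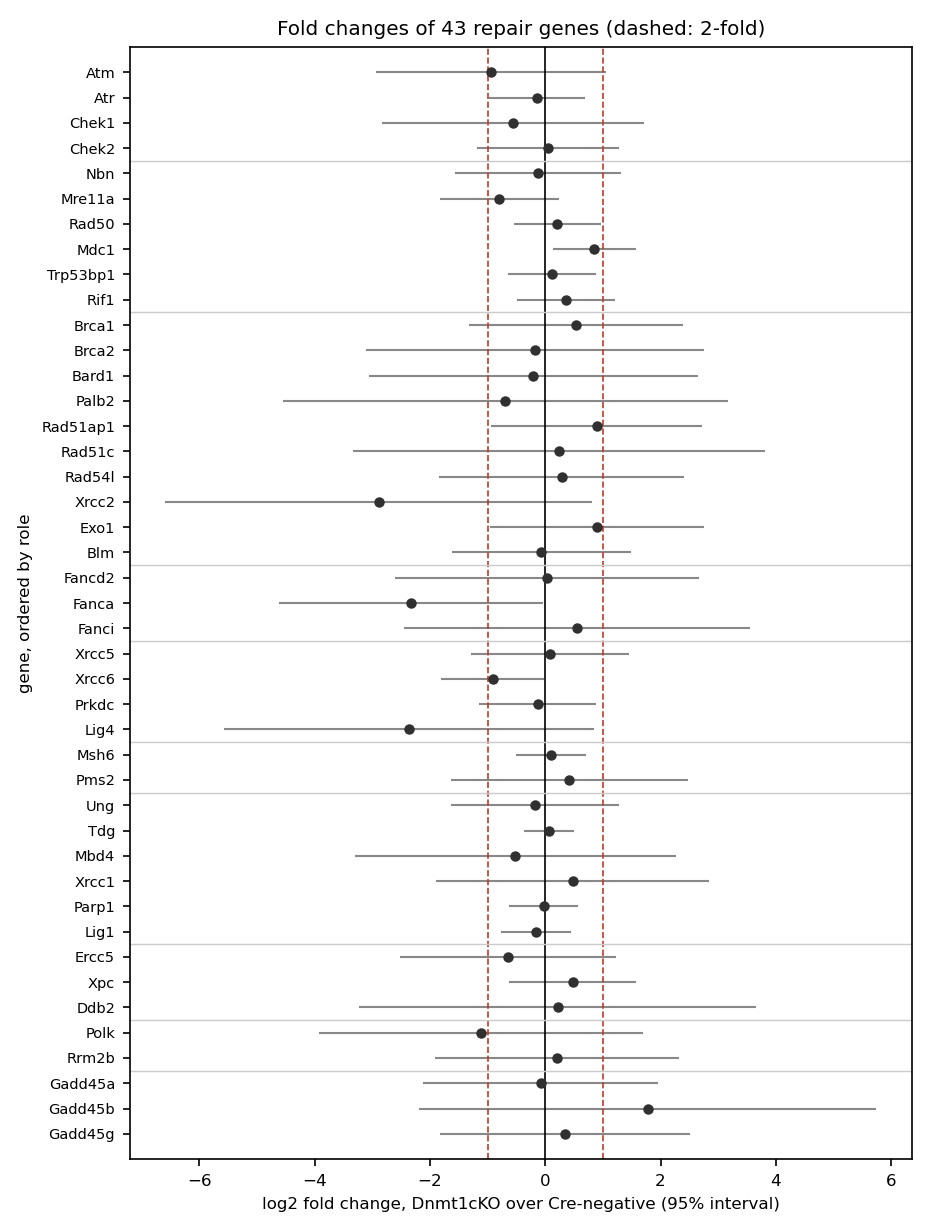
Log2 fold change of each of the 43 genes for Dnmt1cKO over Cre-negative (points) with its 95% interval (bars), the genes in order of role and 2-fold changes dashed. Of the intervals, 7 lie wholly between the dashed lines, and those of Mdc1, Fanca and Xrcc6 leave out 0.

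Base excision repair held the members measured most closely. Tdg, the glycosylase that removes thymine from T:G pairs and oxidised forms of 5-methylcytosine in active demethylation, measured 435, 367, 344, 409 and 342 CPM in Dnmt1cKO, 356 and 363 CPM in Control, and 341 to 386 CPM with a median of 364 in Cre-negative libraries. All 3 groups lay at the same level, and only Dnmt1cKO 1 and 4 stood above the Cre-negative range. The log2 fold change was 0.06 ± 0.21 (95% interval -0.37 to 0.49) against Cre-negative and 0.08 ± 0.30 against Control. Over the 14 libraries Tdg had a coefficient of variation of 7.38%, the lowest of all 13011 tested genes, whose median was 75.9%, and the next lowest was 11.8% for Anapc5. It was also the lowest with RLE scaling, at 9.77%, with upper-quartile scaling, at 8.74%, and with library size alone, at 10.1%.

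Reads of Tdg could be shared with near-identical copies, which was not tested. Tdg-ps matched a Tdg transcript at 98.7% identity over 84.8% of the length, and the shorter Gm5597 and Gm9855 matched at 99.3% and 99.2%, while none of the 3 has a row of its own in the table. Exons of Tdg also overlap those of Glt8d2 on the opposite strand. The counts behind the Tdg values ran from 786 in Dnmt1cKO 5, the shallowest library, to 3524 in Dnmt1cKO 2, and from 1131 to 5189 in Cre-negative libraries.

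Parp1, the sensor of single-strand breaks, measured 165, 554, 371, 332.5 and 351 CPM in Dnmt1cKO, 323 and 272 CPM in Control, and 222 to 575 CPM with a median of 349 in Cre-negative libraries. Dnmt1cKO 1 lay under the Cre-negative range and the other 4 within it, with a log2 fold change of -0.03 ± 0.29 (95% interval -0.63 to 0.57). Lig1, the replicative ligase that also seals repaired bases, averaged 160 ± 39.5 CPM in Dnmt1cKO (SD, n = 5) and 177 ± 50.3 CPM in Cre-negative libraries (n = 7), with an interval of -0.76 to 0.45. Msh6, which recognises mispaired bases in mismatch repair, averaged 148 ± 41.7 CPM in Dnmt1cKO and 138 ± 36.0 CPM in Cre-negative libraries, with an interval of -0.51 to 0.72. For each of these 3 genes a 2-fold difference in either direction lay outside the interval.

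Ung, the uracil glycosylase, measured 24.8, 23.6, 50.3, 44.9 and 6.09 CPM in Dnmt1cKO, 15.9 and 12.5 CPM in Control, and 17.8 to 82.3 CPM with a median of 24.8 in Cre-negative libraries. Both Control libraries were under the Cre-negative range (log2 fold change -1.26 ± 1.05 for Control against Cre-negative, adjusted p = 1, edgeR), and Dnmt1cKO libraries overlapped both groups. Mbd4, the other glycosylase of T:G pairs at CpG, held 27.97 and 26.5 CPM in Dnmt1cKO 1 and 2 and 0 CPM in Dnmt1cKO 3, 4 and 5, against 15.7 and 12.8 CPM in Control and 5.80 to 24.0 CPM in Cre-negative libraries. Both the highest and the lowest Mbd4 values were thus in Dnmt1cKO libraries. Xrcc1, the scaffold of single-strand break repair, had a log2 fold change of 0.47 ± 1.15, and Pms2, which nicks the strand in mismatch repair, one of 0.42 ± 0.99.

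**Figure D3:**
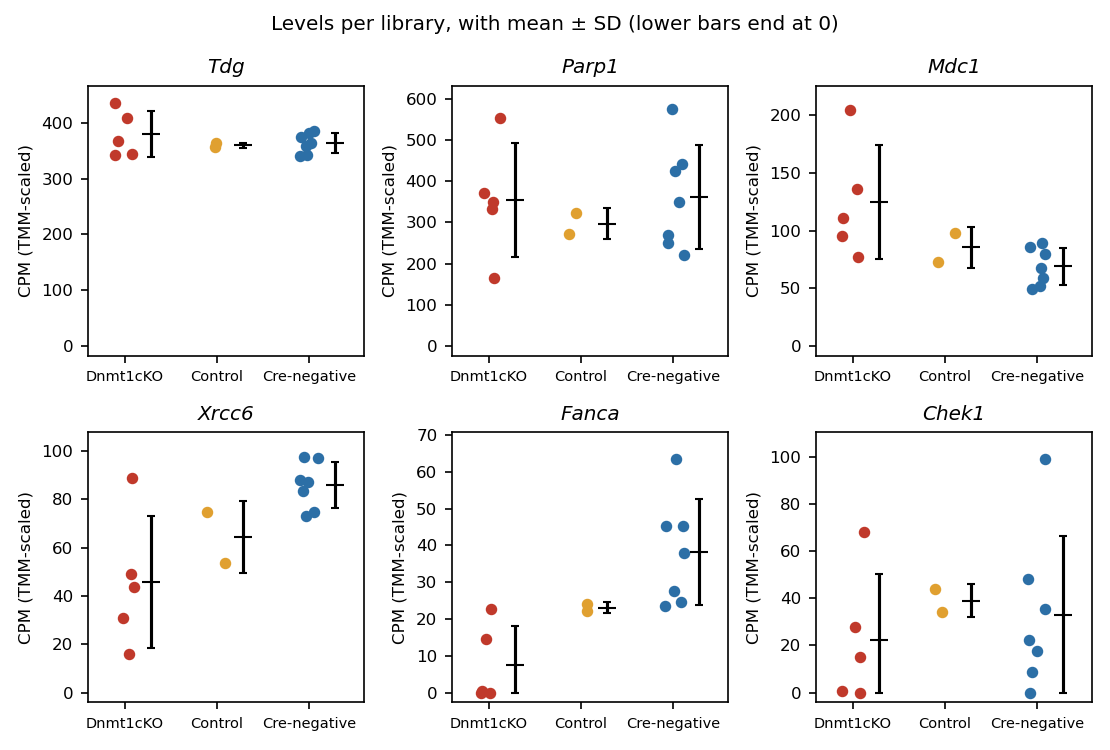
CPM of 6 genes in each library (points) by group, with the mean and SD beside them and lower bars ending at 0. Tdg lies between 341 and 435 CPM in all 14 libraries, Parp1 and Chek1 overlap across the groups, Mdc1 is higher and Xrcc6 and Fanca are lower in most Dnmt1cKO than in Cre-negative libraries.

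The known p53 targets among the 43 genes, Gadd45a, Rrm2b, Polk, Ercc5, Xpc and Ddb2, showed no call. These 6 genes passed no unadjusted test against Cre-negative either, where 13.7% of all genes did. Their 6 log2 fold changes against Cre-negative had a median of 0.06, 3 of 6 were above 0, and their summed level was 113 to 193 CPM in Dnmt1cKO libraries, 143 and 158 CPM in Control and 92.8 to 191 CPM in Cre-negative libraries. Of 20 tested p53 targets that are not among the 43 genes, Cdkn1a and Pmaip1 included, 4 were called higher in Dnmt1cKO than in Cre-negative by edgeR, beside 1.1% of all genes in either direction, with a median log2 fold change of 0.81. At an unadjusted p under 0.05, 8 of the 20 passed against Cre-negative, beside 13.7% of all genes. Against Control 0 of the 20 were called by edgeR, beside 0.177% of all genes. There 7 passed an unadjusted p under 0.05, beside 6.94% of all genes. The sum over the list of 21, which includes the untested Fas, was 2805 to 3614 CPM in Dnmt1cKO libraries, 1391 and 1459 CPM in Control and 1390 to 2182 CPM in Cre-negative libraries. The list of p53 targets outside the 43 genes was chosen with earlier results of these data known. Its counts beside the background are therefore a description and not a test. The difference between that list and the 6 repair genes was not tested. Those 6 genes were measured less closely, with a median biological coefficient of variation of 1.11 beside 0.669.

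Xpc, which recognises damage in nucleotide excision repair, measured 63.1, 110, 94.0, 9.42 and 63.5 CPM in Dnmt1cKO, 44.4 and 28.01 CPM in Control, and 24.6 to 94.1 CPM with a median of 42.7 in Cre-negative libraries. Of 5 Dnmt1cKO libraries 4 lay above both Control libraries, and Dnmt1cKO 4 lay below every other library (log2 fold change 0.48 ± 0.53 against Cre-negative and 0.91 ± 0.81 against Control, adjusted p = 1 for Control, edgeR). Ddb2, which binds ultraviolet lesions, was at 33.3 CPM in Dnmt1cKO 4 and at 0.417 CPM or less in the other 4 Dnmt1cKO libraries, against 9.88 and 18.0 CPM in Control and 0 to 10.6 CPM in Cre-negative libraries. Ercc5, a nuclease of the same pathway, had a log2 fold change of -0.65 ± 0.91. Polk, a translesion polymerase, had -1.11 ± 1.36, and Rrm2b, a ribonucleotide reductase subunit, 0.21 ± 1.03. Rrm2b shares a stretch of 96.1% identity with Gm8616, which has no row in the table.

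The Gadd45 genes encode small stress-induced proteins that bind cell cycle kinases and have been linked to active demethylation. Gadd45a measured 19.4, 21.8, 0, 32.4 and 59.1 CPM in Dnmt1cKO, 25.5 and 24.6 CPM in Control, and 0.229 to 46.3 CPM with a median of 31.4 in Cre-negative libraries. Its groups overlapped, with a log2 fold change of -0.08 ± 0.99. Gadd45b measured 42.0 CPM in Dnmt1cKO 1 and 0.435 CPM or less in the other 4 Dnmt1cKO libraries, 3.73 and 19.7 CPM in Control, and 0 to 15.1 CPM with a median of 0.0806 in Cre-negative libraries. A single Dnmt1cKO library therefore set its log2 fold change of 1.78 ± 1.92, which was -3.65 without that library. The summed level of 15 immediate early and heat shock genes was also highest in Dnmt1cKO 1, at 869 CPM, within 330 to 869 CPM in Dnmt1cKO, 301 and 434 CPM in Control and 326 to 425 CPM in Cre-negative libraries, and its part in the Gadd45b value was not tested. Gadd45g measured 34.2, 9.58, 1.203, 0 and 69.6 CPM in Dnmt1cKO, 17.8 and 28.3 CPM in Control, and 18.1 ± 8.01 CPM (SD, n = 7) with a median of 20.6 in Cre-negative libraries (log2 fold change 0.34 ± 1.05).

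Of the 43 genes, 7 had a 95% interval for Dnmt1cKO against Cre-negative wholly within a 2-fold change either way, beside 9.71% of all tested genes. They were Atr, Rad50, Trp53bp1, Msh6, Tdg, Parp1 and Lig1. Precision followed the level. Among the 7 genes averaging 100 CPM or more, 6 had such an interval and SEs ran from 0.21 to 0.41, beside 48.0% of all genes at that level. Among 14 genes from 30 to 100 CPM, only Atr did, with SEs of 0.35 to 1.10, beside 5.73% of all genes. Among 22 genes under 30 CPM, 0 did, with SEs of 0.71 to 1.92, and 0 of 7076 genes at that level did. For those 22 genes these libraries therefore did not show that a 2-fold difference was absent. The power to detect such a difference was not computed.

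**Figure D4:**
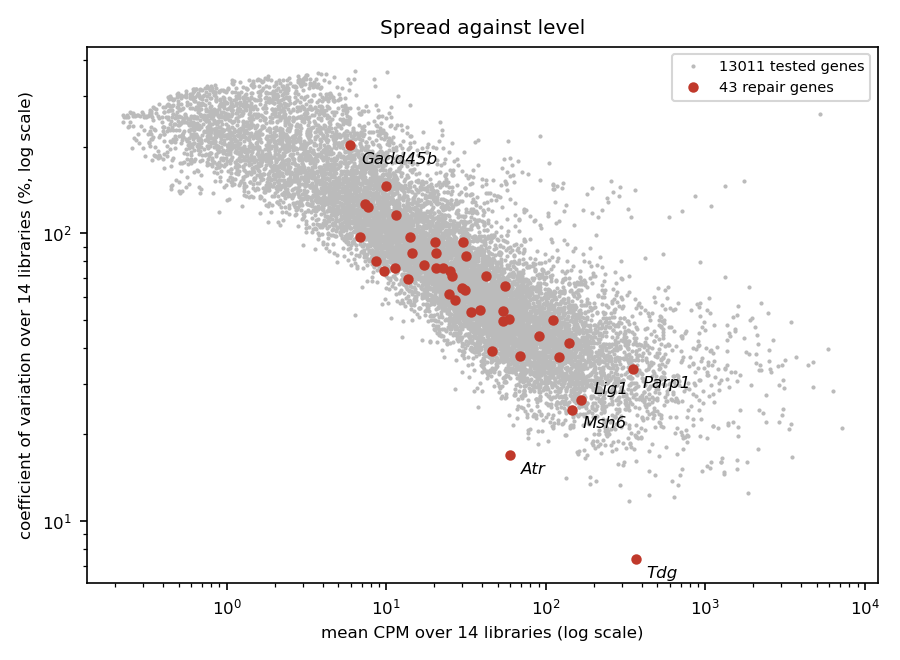
Coefficient of variation over the 14 libraries against mean CPM, both on log scales, for 13011 tested genes (grey) and the 43 repair genes (red). Tdg lies lowest of all genes, at 7.38%, and Gadd45b is the most variable of the 43.

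Per length of annotated exons, which allows levels of different genes to be set side by side, Parp1 and Tdg led in each group. Parp1 averaged 67.0 CPM per kb in Dnmt1cKO, 56.2 in Control and 68.3 in Cre-negative libraries, and Tdg 70.6, 66.9 and 67.7 CPM per kb in the same groups. The Parp1 levels in Cre-negative libraries, 41.9 to 109 CPM per kb, enclosed those of Tdg, 63.4 to 71.8, so the order of this pair is not settled beyond their spread. Lig1 and Msh6 followed, Lig1 with 37.4 CPM per kb in Dnmt1cKO, 33.3 in Control and 41.6 in Cre-negative libraries, and Msh6 with 34.0, 38.3 and 31.7 CPM per kb in the same groups. Their order was the other way round in Control, and their ranges overlapped. Lowest was Xrcc2 in Dnmt1cKO libraries, at 0.257 CPM per kb, and Brca2, a central protein of homologous recombination, in Control and Cre-negative libraries, at 0.759 and 0.739 CPM per kb.

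Many of the uneven levels were values at or near 0 counts. In Dnmt1cKO 1 to 5, 9, 3, 17, 12 and 16 of the 43 genes had 3 counts or fewer, in Control 0 and 2, and in Cre-negative libraries 1 to 7. Of all tested genes the share was 16.3% to 41.9% in Dnmt1cKO, 3.50% and 10.7% in Control and 8.95% to 28.4% in Cre-negative libraries. To allow for depth, each gene's median CPM over the 14 libraries was used to predict its counts, and values were counted where 20 or more were predicted but 3 or fewer found. There were 42 among 198 such predictions in Dnmt1cKO, 21.2% beside 16.4% for all genes. There were 2 of 83 in Control, 2.41% beside 0.951%, and 14 of 287 in Cre-negative libraries, 4.88% beside 5.20%. Of the 43 genes 25 had at least 1 such value, and 16 were over 3 counts in all 14 libraries. Dnmt1cKO 3, 4 and 5 held 15, 10 and 9 of these values and Dnmt1cKO 2, the deepest of its group, 2.

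**Figure D5:**
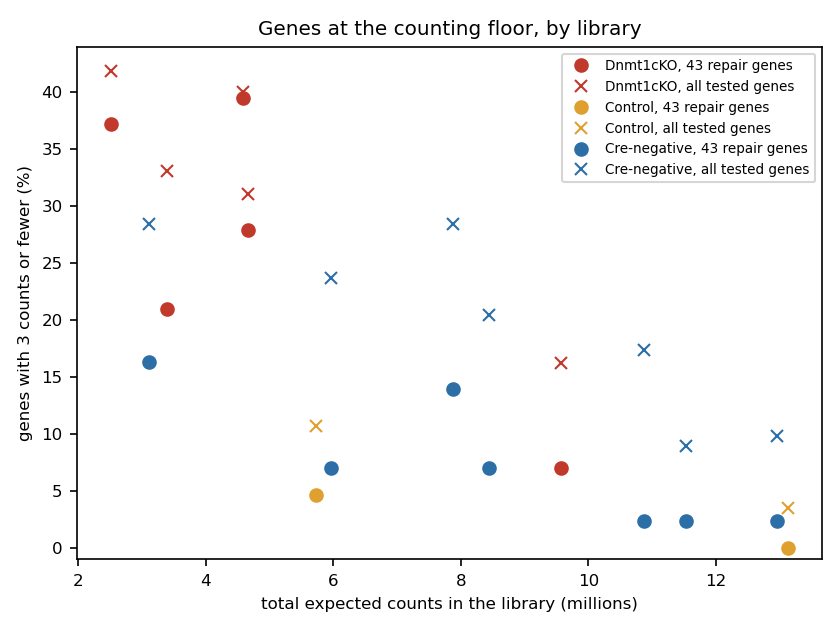
Share of genes with 3 counts or fewer in each library against its total of expected counts, for the 43 repair genes (circles) and all 13011 tested genes (crosses). Dnmt1cKO 1, 3, 4 and 5 are among the 5 shallowest libraries and have the highest shares of repair genes at the floor, from 20.9% to 39.5%.

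Of a wider list of 96 repair genes outside the 43, edgeR called 0 in Dnmt1cKO against Cre-negative, beside 1.1% of all genes. At an unadjusted p under 0.05, 7 passed, all lower, where 915 of all 13011 genes passed lower and 867 higher. The median log2 fold change of the 96 genes was -0.08. DESeq2 called Hus1, Mus81 and Poli lower, where it called 229 of all 13011 genes lower and 320 higher. Limma-voom called Fancc, Poli and Xpa lower, where it called 292 of all genes lower and 162 higher. Whether 3 of 96 exceeds the background of lower calls was not tested. Mus81, a nuclease for joined DNA molecules, had 0.481 CPM or less in each Dnmt1cKO library, against 11.1 and 7.12 CPM in Control and 0 to 37.5 CPM with a median of 12.9 in Cre-negative libraries (log2 fold change -6.66 ± 1.91, adjusted p = 0.0987, edgeR). Poli, a translesion polymerase, measured 11.4, 8.44, 0.241, 0 and 0 CPM in Dnmt1cKO, 14.0 and 2.59 CPM in Control, and 28.6 to 69.6 CPM with a median of 38.0 in Cre-negative libraries (log2 fold change -3.34 ± 1.18, adjusted p = 0.184, edgeR). Poli alone of the 96 genes had the 5 Dnmt1cKO libraries on 1 side of the 7 Cre-negative ones, beside 1.86% of all tested genes. A count of 1 in 96 is not above that share. For Poli both Control libraries lay on the same side as Dnmt1cKO.

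Hus1, a subunit of the 9-1-1 clamp that activates Atr, measured 5.32 CPM in Dnmt1cKO 4 and 0.962 CPM or less in the other 4 Dnmt1cKO libraries, against 9.05 and 10.4 CPM in Control and 0 to 32.7 CPM in Cre-negative libraries (log2 fold change -3.86 ± 1.59, adjusted p = 0.265, edgeR). Mutyh, a glycosylase for adenine opposite oxidised guanine, had 0 counts over the 5 Dnmt1cKO libraries, 39 over Control and 161 over Cre-negative libraries. With counts pooled and 3 counts set for Dnmt1cKO, the bounds were 14.9-fold lower than in Control and 20.3-fold lower than in Cre-negative libraries. These bounds cover counting error only and not the spread between libraries. The Cre-negative counts came only from Cre-negative 1, 4 and 7, at 60, 45 and 56, and the Cre-negative median was 0 CPM. All 39 Control counts were in Control 1, so the bound against Control rests on that library, and edgeR did not call the gene against Cre-negative (adjusted p = 0.258, and 0.245 to 0.742 over the alternatives). Each of these 4 genes averaged under 30 CPM over the 14 libraries.

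Genes of DNA replication and division, which share S-phase and G2 timing with many repair genes, also showed no call by edgeR. Against Cre-negative, 1.1% of all genes were called and 13.7% passed unadjusted. Of 21 replication genes 0 were called and 1 passed unadjusted, with a median log2 fold change of -0.01. Of 14 genes of G2 and mitosis 0 were called and 0 passed unadjusted, with a median of 0.40 and 12 of 14 above 0. Against Control 12 of these 14 were above 0, with a median of 0.54, and 1 passed unadjusted beside 6.94% of all genes. The replication genes summed to 1443 to 2287 CPM in Dnmt1cKO, 1470 and 1680 CPM in Control and 1355 to 2343 CPM in Cre-negative libraries. Those of G2 and mitosis summed to 1988 to 2849 CPM in Dnmt1cKO, 2016 and 1620 CPM in Control and 1374 to 2713 CPM in Cre-negative libraries. Both sums thus overlapped between the groups.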

How the data were processed

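Expected counts per gene symbol, as the authors deposited them, are not scaled to depth. They come from RSEM 1.2.3 and Bowtie 0.12.9 on mm10, after bcl2fastq 2.17.1.14, per the submitters' processing notes. For annotation and strand setting nothing is given in the sources used here. From 7.31% to 21.9% of a library's values were not whole, and all were rounded before testing. No molecular identifiers are described, so the floor of 3 counts covers counting error only, 0.228 CPM in the deepest and 1.19 CPM in the shallowest library before TMM scaling. No 2 libraries were identical.

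Genes were filtered with filterByExpr (minimum count 10) and scaled by TMM, and the 3 groups were fitted together without covariates with edgeR 4.0.16 (R 4.3.3; quasi-likelihood test), adjusted by Benjamini-Hochberg over 13011 genes and called under 0.05. Intervals are 95%, from each fold change's SE. Alternatives were other scalings, filters and tools (DESeq2 1.42.0, voom of limma 3.58.1), a stroma covariate, a replicate block, subsets of libraries and, added after the data were seen, library size alone for the spread of Tdg. Each p-value measures how pooled lysates vary.

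The 43 genes and all lists were chosen with earlier results of these data known. Genes named were the 10, 5 and 3 with the smallest p in the 3 comparisons in the order of the report, any called or set apart, fixed examples (Atm, Atr, Chek1, Chek2, Brca1, Parp1, Tdg and the Gadd45 genes), and 4 of the wider repair list; the others were added to fill out each role after their values were seen. Positions and exon lengths came from GENCODE M21 on GRCm38, near-identical transcripts (95% identity or more) from BLAST+ 2.17.0, and promoters from RefSeq, matched by symbol for 33 of 43 genes. That is 76.7%, too few for a check of CpG content over the list, which is void. Exons of 17 of the 43 genes overlap another gene on the opposite strand.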

Additional observations from a re-analysis of the deposited data

Results flagged for a closer look

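In groups of 5 or 7 libraries, the highest and lowest value of each named gene were set against Dixon's 95% critical value. Of 49 groups tested 8 had a library that stood apart. Dixon's value assumes normally spread values, which skewed CPM with values at 0 do not follow. The 8 are therefore not set against a rate due to chance. In Dnmt1cKO libraries these were Xrcc2 at 6.46 CPM in Dnmt1cKO 2 (next 0.241), Rad51ap1 at 78.4 CPM in Dnmt1cKO 3 (next 23.4), Gadd45b at 42.0 CPM in Dnmt1cKO 1 (next 0.435), Chek2 at 91.6 CPM in Dnmt1cKO 1 (next 36.8) and Hus1 at 5.32 CPM in Dnmt1cKO 4 (next 0.962). In Cre-negative libraries they were Gadd45b at 15.1 CPM in Cre-negative 5 (next 1.88), Ung at 82.3 CPM in Cre-negative 3 (next 33.0) and Poli at 69.6 CPM in Cre-negative 6 (next 42.6). Each is the highest value of its group.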

How the results depend on the processing

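None of the 43 genes was called under any alternative in any comparison, except Fanca, the 1 gene called by limma-voom against Cre-negative. Counts over all genes moved more. Against Cre-negative, 143 genes became 549 with DESeq2, 454 with limma-voom, 249 with no filter, 60 with a stricter filter, 81 with the stroma covariate, 75 with the replicate block and 86 with only the 2 groups compared, and ran from 93 (without Cre-negative 7) to 238 (without Dnmt1cKO 2) on leaving out 1 library. Dnmt1cKO against Control gave 23, but 113 with DESeq2, 232 with limma-voom, 14 with the stricter filter, and 6 (without Control 1), 9 (without Control 2) to 37 (without Dnmt1cKO 2) on leaving out 1. Control against Cre-negative gave 7, but 27 with DESeq2, 40 with limma-voom, 25 with no filter, 4 with the stroma covariate, 19 with the replicate block, and 2 (without Control 2) to 11 (without Control 1 or Dnmt1cKO 1) on leaving out 1. The causes were not tested.

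For 25 named genes, 620 log2 fold changes under 25 other settings gave 6 that turned: Gadd45b (-4.45 without the 3 shallowest libraries; -3.65 to 4.47 on leaving out 1), Chek2 (-0.60 without the 3 shallowest) and Gadd45g (-2.21 without the 3 shallowest, -1.65 in limma-voom, -0.90 with the replicate block). Another 33 crossed 0 by less than their SE. Beside Fanca, the other new calls were Mus81, Poli and Hus1 in DESeq2 and Poli in limma-voom. The median over all genes against Cre-negative moved to -0.41 with the block and -0.20 with the stroma covariate, and against Control to -0.78 in limma-voom. Replicate numbers showed no clear pairing of libraries: of 9 same-numbered pairs 1 correlated over 0.1 (range -0.16 to 0.10), and 1 of 12 libraries correlated best with its own number. Values were taken as deviations from the group mean, which mirror each other in the 2 Control libraries. The pairs are thus not independent, and weak pairing cannot be told from none. Wide SEs limit the 22 genes under 30 CPM, and the part of depth in this was not tested. The 2 Control libraries limit both comparisons with Control.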
